A study of Homo sapiens with 5 samples.

Results

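The genes described here encode the proteins that copy DNA and supply its building blocks: the replicative helicase, the factors that load and fire it, the DNA polymerases with their clamp, and the enzymes that make deoxynucleotides. They were chosen by name from the table of estimated counts, summed per gene, and kept where the mean over the libraries was at least 20 scaled counts. All 47 listed genes passed, of 14585 genes with that mean and 35453 gene names in the table. The RNA came from KGN, a line established from an ovarian granulosa tumour, so all libraries come from 1 cell line. Treatment lasted 24 h, and all groups, the control included, received 100 nmol/L of the aromatase substrate androstenedione in medium with charcoal-stripped serum. The control is called untreated in its title, while the written protocol adds ethanol at less than 0.05% of the volume. The other groups received FSH (follicle-stimulating hormone) at 100 ng/mL, SC79 (labelled a PKB activator; PKB is also called AKT) at 4 µg/mL, forskolin (FSK, which activates adenylate cyclase; labelled a PKA activator) or phorbol myristate acetate (PMA, labelled a PKC activator). The sources differ on 2 doses: the treatment labels give FSK as 10 mmol/L and PMA as 0.1 mmol/L, while the protocol has a symbol-font character that stands for micro, or 10 µmol/L and 0.1 µmol/L. Each group is 1 library made from 3 cultures of different weeks, pooled at 90 ng of RNA each, so there is no replicate error, no difference below has a replicate check, and no p-value was computed.

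Before a cell divides, the origin recognition complex, CDC6 and CDT1 load the ring of MCM2 to MCM7 onto origins, a step called licensing that geminin (GMNN) restrains. The kinase CDC7, with CDC45 and the GINS proteins, then turns the loaded ring into a moving helicase, and the polymerases alpha, delta and epsilon copy the strands behind it while the clamp PCNA holds them on DNA. Many of these genes are known targets of the E2F transcription factors and are transcribed mostly in cells that are about to enter or are passing through S phase, the phase of DNA synthesis. Granulosa cells of a growing follicle divide, and they leave the cell cycle as they luteinise after the gonadotropin surge, which acts in large part through cAMP.

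Library totals lay between 50218703 (SC79) and 58811603 (control) estimated counts. Values are counts scaled between libraries (TMM), ratios are log2 with a pseudocount of 1, and bracketed ranges are exact 95% intervals of a ratio that cover counting error only. Of 10 granulosa markers, 10 had a mean of at least 20 scaled counts, among them FOXL2 (5459 to 10393), AMH (1492 to 2088), NR5A1 (4685 to 5193) and, at a low level, FSHR (36.6 to 131.8). Their sum was 22787 in control, 54714 with FSK and 19317 with PMA. With FSK 7 of 10 were higher, CYP19A1, which encodes aromatase, at 27448 against 901.7 in control and INHA at 921.7 against 61.5. The rest were lower, among them KITLG at 602.6 with FSK against 2000.9 in control. With PMA 3 of 10 were higher: INHBA at 2908 against 1343 in control, CYP19A1 at 1691 against 901.7 and INHA at 74.2 against 61.5. The rest were lower, among them AMHR2 at 15.8 with PMA against 98.3 in control. Of the markers of other cells, CD3E (T cells) and BMP15 (oocyte) had 0 counts in every library and CDH5 (endothelium) at most 2.0, while the oocyte markers ZP3 (16.7 to 33.4) and GDF9 (7.0 to 18.8) were low. The 3 epithelial markers were nearly all KRT7, at 3523 to 5209, and summed to 3951 in control, 5258 with FSH, 3727 with FSK and 3865 with PMA. Markers used for other cells also moved with treatment. The 4 endothelial markers summed to 345.7 scaled counts in control, 391.3 with FSK and 991.7 with PMA, where 3 of 4 were higher (PECAM1, 108.7 in control and 648.3 with PMA), and the 4 immune markers to 833.1, 919.3 and 2221.7, where 2 of 4 were higher (CD68, 791.6 and 2179). The 6 theca and stroma markers were nearly all COL1A1, at 768404 in control, 515385 with FSK and 276905 with PMA; the other 5 summed to 153.1, 201 and 169. The part of these genes in the results was not tested.

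FSK had the lowest level of every member. All 47 members were lowest in the FSK library of the 5, and 39 were highest in control, 4 with PMA, 2 with FSH and 2 with SC79. The members together made up 2122 CPM (counts per library total, on the usual CPM scale) in control, 2004 CPM with FSH, 1859 CPM with SC79, 1694 CPM with PMA and 815.1 CPM with FSK. On the scaled counts their sum was 93.5% of control with FSH, 86.3% with SC79, 76.3% with PMA and 38.9% with FSK. In bulk RNA, fewer cells in S phase and less of these RNAs per cell cannot be told apart.

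**Figure D1:**
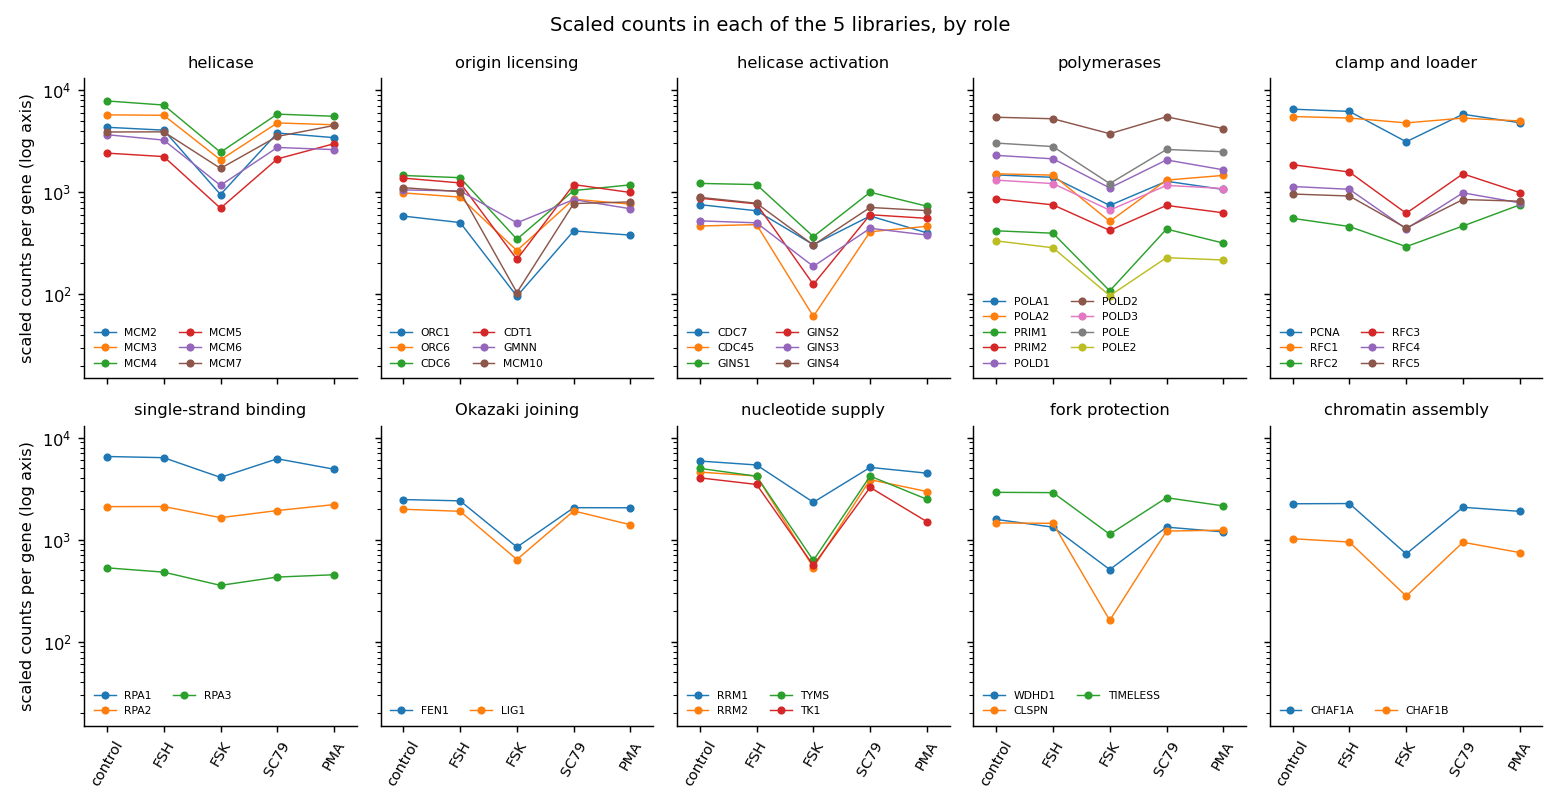
Scaled counts per gene (log axis) of the 47 members in the 5 libraries, 1 panel per role; each point is 1 library and lines only connect a gene's points. The FSK point is the lowest of every line, and RFC1 and RPA2 have the smallest FSK differences, 1.15-fold and 1.28-fold.

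The comparison of FSK with control concerns the cAMP pathway. Every member was lower, from 1.15-fold for RFC1, the large subunit of the clamp loader, to 10.7-fold for MCM10, which helps to fire licensed origins. By role, the median ratio was lowest for the enzymes of deoxynucleotide supply (-2.92) and the licensing factors (-2.33), with which MCM10 was counted. It was highest for the single-strand binding proteins (-0.57), but roles overlapped: CLSPN, CDC45 and GINS2 of other roles were among the lowest members. Of 47 members, 47 were below control (48.9% of all genes compared), 39 at least 2-fold (5.43%) and 11 at least 4-fold (1.44%). The median log2 ratio of the members was -1.55, against 0.01 for the 12610 genes compared.

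MCM10 (ENSG00000065328, GRCh38 chromosome 10, 13161554 to 13211104) was measured at 1106 scaled counts in control, 1009.5 with FSH, 772 with SC79, 802 with PMA and 104 with FSK. The FSK library stands apart from the other 4, 10.7-fold below control [8.70 to 13.2]. CLSPN (ENSG00000092853) encodes claspin, which links stalled forks to the checkpoint kinase CHK1; it had 1459 in control, 1446 with FSH, 1214 with SC79, 1239 with PMA and 162 with FSK, a 9.0-fold lower level with FSK [7.63 to 10.7]. RFC1 (ENSG00000035928) had 5505 in control, 5319 with FSH, 5309 with SC79, 4981 with PMA and 4767 with FSK. These 5 values lie close together, and the 1.15-fold difference between FSK and control has a counting interval of 1.11 to 1.2. POLD2 (ENSG00000106628), the second subunit of polymerase delta, had 5416 in control, 5233 with FSH, 5474 with SC79, 4195 with PMA and 3737 with FSK, or 1.45-fold lower with FSK [1.39 to 1.51].

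The promoters of these 4 genes are shown because they are the members with the lowest (MCM10, CLSPN) and the highest (RFC1, POLD2) FSK ratio that have an entry in the RefSeq promoter table. Each runs 5′ to 3′ on the gene's strand from 250 bases before to 50 after the RefSeq start (GRCh38.p14). Capitals mark the letters searched on both strands: E2F sites TTTCGCGC and TTTGGCGC, the shorter TTCGCGC and TTGGCGC that lie within them, the E2F-type sites TTTCCCGC and TTTGGCGG, the CCAAT box CCAAT, the CHR element TTTGAA and the GC box GGGCGG. TTTCCCGC and TTTGGCGG were added after the promoters had been seen.
MCM10, chr10:13161308-13161607, plus strand: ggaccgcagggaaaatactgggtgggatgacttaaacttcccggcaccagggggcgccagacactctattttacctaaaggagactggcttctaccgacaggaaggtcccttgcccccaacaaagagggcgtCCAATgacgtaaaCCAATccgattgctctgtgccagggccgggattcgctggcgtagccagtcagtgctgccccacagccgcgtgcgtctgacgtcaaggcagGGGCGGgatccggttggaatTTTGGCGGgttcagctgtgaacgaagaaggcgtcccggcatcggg
CLSPN, chr1:35769929-35770228, minus strand: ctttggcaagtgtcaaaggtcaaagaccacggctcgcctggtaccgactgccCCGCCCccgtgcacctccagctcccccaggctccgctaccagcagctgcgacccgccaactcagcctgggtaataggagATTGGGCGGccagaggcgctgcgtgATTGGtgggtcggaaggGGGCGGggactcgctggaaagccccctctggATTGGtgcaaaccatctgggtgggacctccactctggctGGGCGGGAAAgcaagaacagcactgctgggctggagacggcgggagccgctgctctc
RFC1, chr4:39366313-39366612, minus strand: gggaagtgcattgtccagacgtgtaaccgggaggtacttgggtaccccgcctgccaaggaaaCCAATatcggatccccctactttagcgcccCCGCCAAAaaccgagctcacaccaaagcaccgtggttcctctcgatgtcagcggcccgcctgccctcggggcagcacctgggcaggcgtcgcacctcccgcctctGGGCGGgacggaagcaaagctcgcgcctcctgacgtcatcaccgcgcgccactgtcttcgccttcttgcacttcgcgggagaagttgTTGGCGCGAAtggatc
POLD2, chr7:44123499-44123798, minus strand: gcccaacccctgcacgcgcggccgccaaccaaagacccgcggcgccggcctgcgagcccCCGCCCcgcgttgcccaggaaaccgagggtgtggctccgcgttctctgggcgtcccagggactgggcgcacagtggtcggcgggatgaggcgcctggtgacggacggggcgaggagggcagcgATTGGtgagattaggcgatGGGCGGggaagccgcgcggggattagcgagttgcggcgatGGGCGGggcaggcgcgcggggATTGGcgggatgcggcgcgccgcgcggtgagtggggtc
MCM10 has an E2F-type match 6 bases after the start and CLSPN has one 5 bases before it, overlapping a GC box. RFC1, whose RNA had the smallest FSK difference, has E2F letters too. Its matches overlap 35 and 38 bases after the start, and another lies 158 bases before it. Whether E2F factors act on these promoters was not tested. POLD2 has no E2F letters in this window, 2 CCAAT boxes and 3 GC boxes.

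Of the 47 members, 41 had a promoter entry; MCM4, MCM5, GINS4, POLD3, RPA2 and RPA3 had none. The 4 E2F sites named before the added ones occurred in 17 of 41 member promoters, or 41.5%, against 8.35% of 10809 promoters of genes with a mean of at least 20 scaled counts here and 5.06% of all 35116 promoters. With the 2 added sites, 26 of 41 held at least 1, or 63.4%, against 11.5% of the expressed genes' promoters. Because these 2 were picked with the promoters in view, the 63.4% is a description and not a like comparison. The CCAAT box occurred in 56.1% against 36.3%, the GC box in 73.2% against 69% and the CHR element in 1 of 41, or 2.44%, against 9.93%. The median GC content was 65% in the member promoters and 65% in those of expressed genes. The 26 members with any of these E2F letters had FSK log2 ratios from -3.40 to -0.21 with a median of -1.63. The 15 without had ratios from -3.10 to -0.54 with a median of -1.38, so the ranges overlap almost fully. This split counts the 2 sites added after the promoters had been seen. MCM10, CLSPN, CDC45, GINS2, CDT1 and TYMS are among the members with only those. The order of the 2 medians is therefore not read as a result. A match is a description of letters and not a bound site. Sites outside this window or spelled with other letters were not searched, and control by E2F was not tested. RRM2, TK1 and PRIM1 are among the 15 with no E2F letters in this window, and were at -3.10, -2.85 and -1.95 with FSK.

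**Figure D2:**
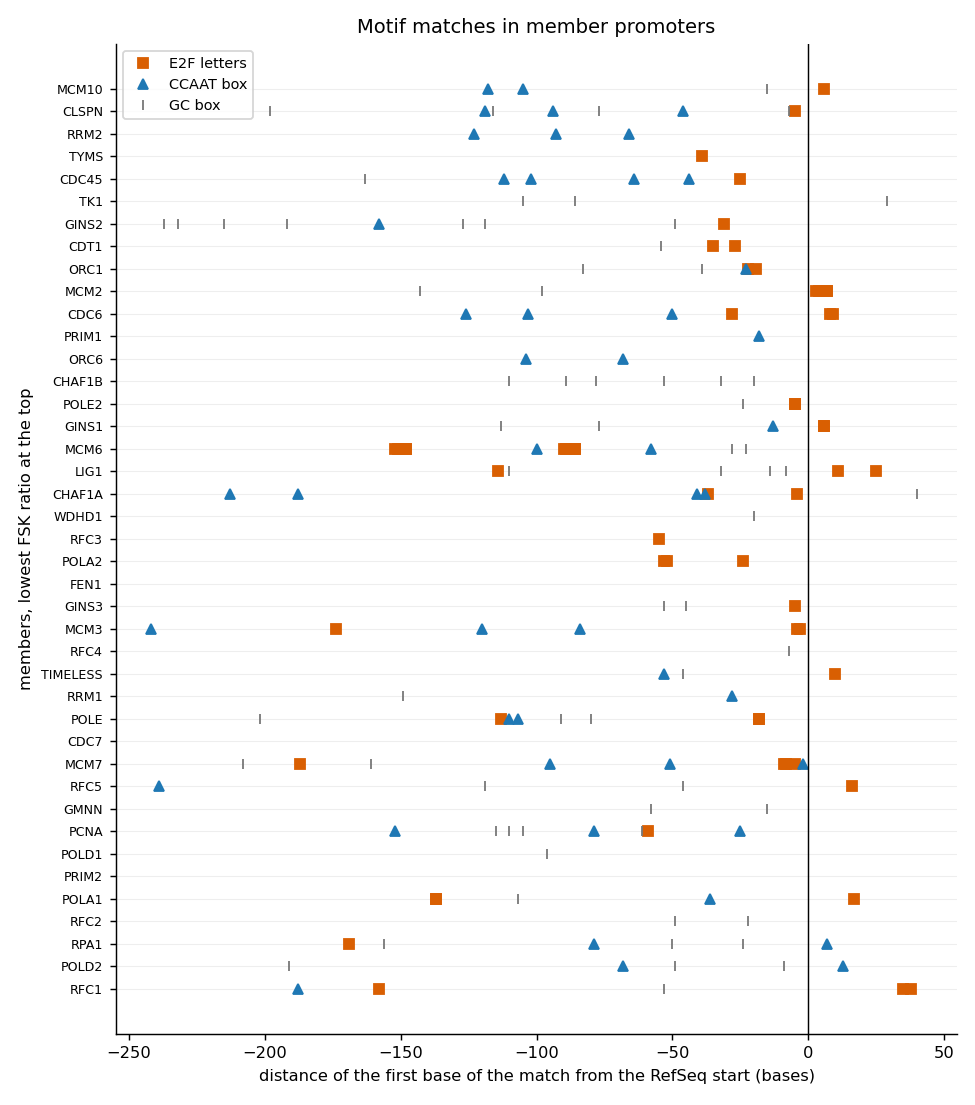
Positions of E2F letters (squares), CCAAT boxes (triangles) and GC boxes (bars) in the promoters of the 41 members with an entry; the x axis is the distance in bases of the first base of a match from the RefSeq start, and members are ordered by FSK ratio with MCM10 (-3.40) at the top and RFC1 (-0.21) at the bottom. Members with E2F letters are found from the top to the bottom of the plot.

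Among the licensing genes, the median FSK ratio was -2.33 and 4 of 6 were at least 4-fold lower (1.44% of all genes compared). These 6 include MCM10, the lowest of them, although it acts on origins already licensed. CDT1, the helicase loader, was at -2.64, ORC1 and ORC6, subunits of the origin recognition complex, were at -2.60 and -1.87, and CDC6 was at -2.07. GMNN, the inhibitor of CDT1, was the highest of the 6, with 1051 scaled counts in control, 1027 with FSH, 845 with SC79, 687 with PMA and 500.1 with FSK. Its FSK level was 2.10-fold below control [1.89 to 2.34], so the inhibitor and the loader it binds differed in size but not in direction. The helicase ring MCM2 to MCM7 lay between -2.19 and -1.18. The upper end is MCM7, whose sum includes a form annotated as retaining an intron, with 1837 in control and 914 with FSK. The most abundant coding form of MCM7 had 1772 in control and 588 with FSK. MCM2 had 4319.5 in control, 4047 with FSH, 3797 with SC79, 3417 with PMA and 948 with FSK, and MCM7 had 3884, 3894, 3513, 4497 and 1708 in the same order. FSK was lowest for both, while PMA was the highest library for MCM7 only.

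Helicase activation genes had a median of -1.64 with FSK. CDC45, part of the moving helicase, had 466 in control, 481 with FSH, 409 with SC79, 462 with PMA and 60.7 with FSK, which is 7.67-fold lower [5.84 to 10.2] on few counts. GINS2 was at -2.80, while its partners GINS1, GINS4 and GINS3 were at -1.73, -1.55 and -1.48, although the 4 proteins form 1 complex. CDC7, the origin-firing kinase, had 754 in control, 657 with FSH, 584 with SC79, 399 with PMA and 305 with FSK. It had the smallest FSK difference of the 6, and its PMA level was the nearest to FSK.

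Polymerase genes had a median FSK ratio of -1.06, and 6 of 9 were at least 2-fold lower (5.43% of all genes compared). PRIM1, the catalytic primase subunit, was lowest at -1.95, with 418 in control, 396 with FSH, 434 with SC79, 317 with PMA and 108 with FSK. Its partner PRIM2 was at -1.03, and POLA1 and POLA2, the other subunits of the same polymerase alpha complex, were at -0.99 and -1.55. POLE2 and POLE of polymerase epsilon were at -1.77 and -1.32, and POLD1 and POLD3 of polymerase delta at -1.06 and -0.98. POLA1 and POLD3, at 1.99-fold and 1.97-fold, lay just short of the 2-fold mark. The clamp PCNA was at -1.06. Of the clamp loader subunits RFC3 was lowest, with 1857 in control, 1574 with FSH, 1509.7 with SC79, 991 with PMA and 620.4 with FSK, or 2.99-fold lower [2.73 to 3.29], and RFC4, RFC5 and RFC2 were at -1.38, -1.11 and -0.92.

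The 3 subunits of RPA, which coats single-stranded DNA in replication and in repair, were each less than 2-fold lower with FSK. RPA1 had 6529.8 in control, 6359 with FSH, 6201 with SC79, 4902 with PMA and 4075 with FSK, and RPA2 had 2107, 2113, 1929, 2206 and 1642 in that order. RPA3 was at -0.57. The 2 enzymes that trim and seal Okazaki fragments were close to each other with FSK. LIG1, the ligase, had 1986 in control, 1897 with FSH, 1912 with SC79, 1399.7 with PMA and 639 with FSK, and FEN1, the flap nuclease, had 2472, 2401, 2058, 2053 and 845. Their FSK ratios were -1.63 and -1.55.

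Of the 4 nucleotide supply enzymes, 3 were at least 4-fold lower with FSK (1.44% of all genes compared). Ribonucleotide reductase makes deoxynucleotides from ribonucleotides and is built of RRM1 and RRM2, of which RRM2 is the part that cells limit to S phase. RRM2 (ENSG00000171848) had 4594 in control, 4206 with FSH, 3874 with SC79, 2964 with PMA and 533 with FSK, 8.62-fold lower with FSK [7.86 to 9.45]. RRM1 (ENSG00000167325) had 5896, 5394, 5107, 4483 and 2325 in that order, 2.54-fold lower with FSK [2.42 to 2.66]. The intervals of these 2 FSK differences do not overlap. TYMS, thymidylate synthase, was 7.97-fold lower [7.32 to 8.68] and TK1, the cytosolic thymidine kinase of the salvage route, 7.21-fold [6.59 to 7.90]. The nucleotide supply genes held 361.4 CPM in control and 73.9 CPM with FSK.

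Fork protection and chromatin assembly genes completed the set. TIMELESS, which travels with the fork, had 2910.1 in control, 2889.8 with FSH, 2577 with SC79, 2142 with PMA and 1130.2 with FSK, and WDHD1, which ties polymerase alpha to the helicase, was at -1.63 with FSK. CHAF1A and CHAF1B, the large and middle subunits of the chaperone CAF-1 that places histones behind the fork, were at -1.63 and -1.86. CHAF1A had 2248 in control, 2259 with FSH, 2078 with SC79, 1895 with PMA and 725 with FSK, and CHAF1B had 1022, 948, 943, 748 and 280.2.

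**Figure D3:**
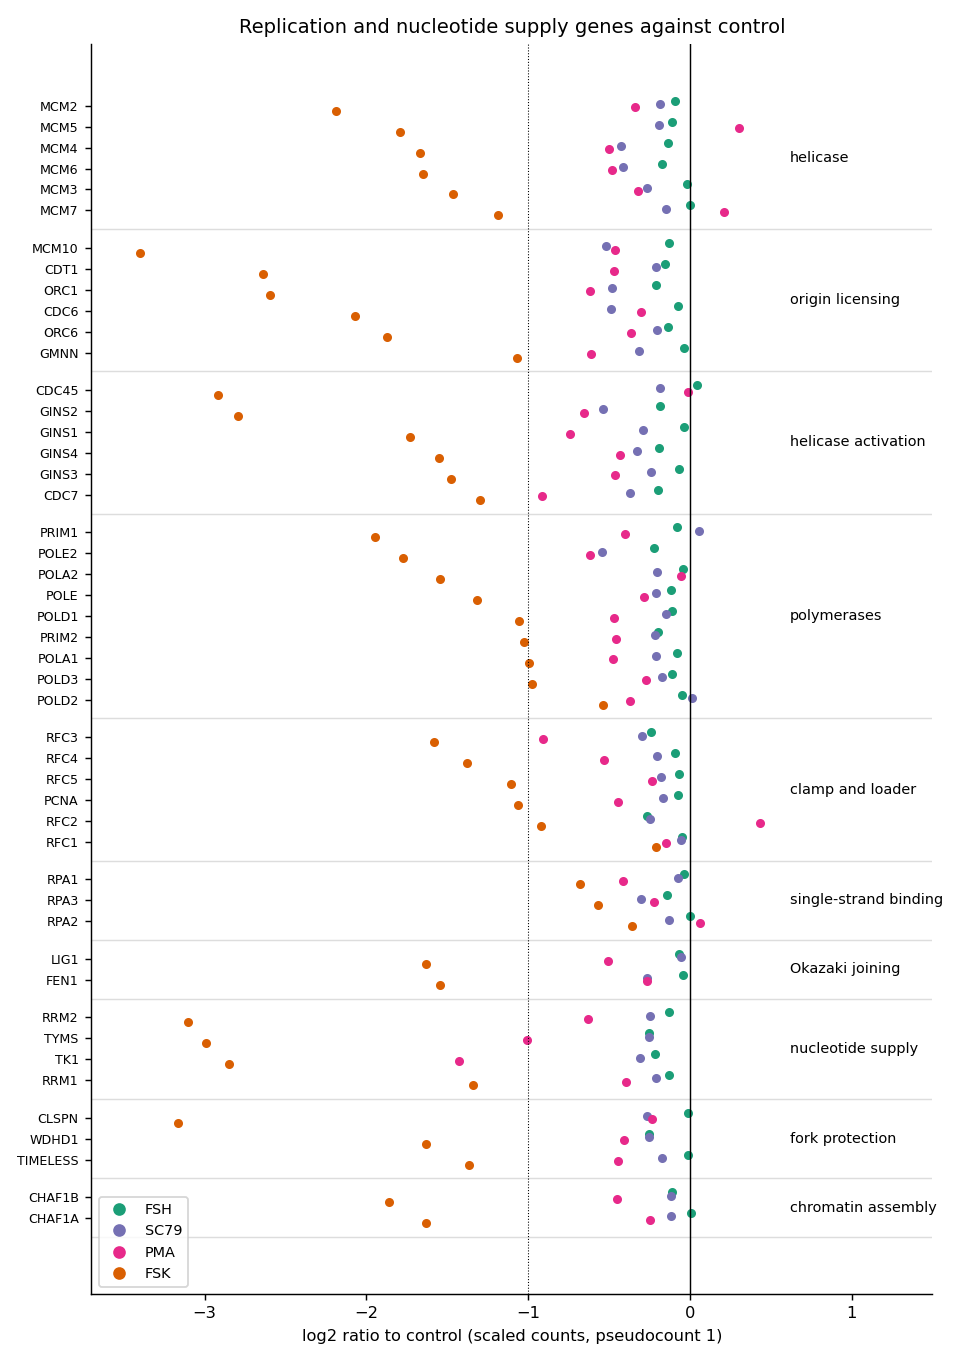
Log2 ratio to control of each of the 47 members with FSH, SC79, PMA and FSK, grouped by role; each point is 1 library against the control library and the dotted line marks 2-fold lower. FSK points reach from -3.40 (MCM10) to -0.21 (RFC1), and the PMA points of RFC2, MCM5, MCM7 and RPA2 lie to the right of 0.

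The comparison of PMA with control concerns the PKC pathway. Most members were lower by less than 2-fold, thymidine nucleotide enzymes had the lowest ratios, and a few helicase and clamp loader subunits were higher. Of 47 members, 43 were below control (50.9% of all genes compared), 36 at least 1.2-fold (23.3%), 10 at least 1.5-fold (9.2%) and 2 at least 2-fold (3.62%). The median log2 ratio was -0.43, against -0.01 for 12648 genes. TK1 (ENSG00000167900, chromosome 17) had 4033 scaled counts in control, 3477 with FSH, 3252 with SC79, 1502 with PMA and 559.7 with FSK, so PMA was second lowest, at 37.2% of control [35.1 to 39.5]. TYMS (ENSG00000176890) had 4994, 4187, 4194, 2488 and 627, or 49.8% of control with PMA [47.5 to 52.2]. TYMS shares 35.7% of its 31-base words with ENOSF1, a gene on the other strand that overlaps it, and since strand is not stated their reads cannot be told apart there. ENOSF1 had 330.6 counts in control, 354.1 with FSK and 575.1 with PMA. CDC7 was at 52.9% of control with PMA [46.9 to 59.7] and RFC3 at 53.4% [49.4 to 57.6].

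RFC2, a small clamp loader subunit, was the highest member with PMA, with 554 in control, 460.2 with FSH, 466 with SC79, 749.5 with PMA and 292 with FSK. Its PMA level was 135.4% of control [121.4 to 150.9], while the other small subunits RFC3, RFC4 and RFC5 were at log2 ratios of -0.91, -0.53 and -0.23. At least 1.2-fold higher were 2 members, RFC2 and MCM5 (21.5% of all genes compared were). MCM5 had 2410.5 in control, 2230.3 with FSH, 2114 with SC79, 2982 with PMA and 696 with FSK, 123.7% of control with PMA [117.3 to 130.4], and MCM7 was at 115.8% [111.0 to 120.8]. The other 4 ring subunits were below control with PMA, from MCM3 at -0.32 to MCM4 at -0.50, so the ring subunits differed in direction. RPA2 at 104.7% [98.7 to 111.0] was not distinguishable from control at this depth, and neither were CDC45 at 99.3% [87.4 to 112.8] and POLA2 at 96.5% [89.8 to 103.5]. With library totals in place of TMM, CDC45 and POLA2 lay above 0 as well, 6 members in all, and with the authors' normalized values only MCM5 and RFC2 did.

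PMA and FSK were also compared directly, in a ratio that leaves out the control library, although the scaling and the minimum mean use all libraries. All 47 members were higher with PMA than with FSK (49.6% of all genes compared), 45 of them at least 1.2-fold (24.8%), 29 at least 2-fold (5.8%) and 7 at least 4-fold (1.61%), with a median log2 difference of 1.16. MCM10, CLSPN and CDC45 were furthest apart, at 2.94, 2.93 and 2.91. Closest were RFC1 at 0.06, POLD2 at 0.17, RPA1 at 0.27, RPA3 at 0.35, CDC7 at 0.38, RPA2 at 0.42 and GMNN at 0.46. RFC1, at 104.5% of the FSK level [100.4 to 108.8], was below the FSK level when the authors' normalized values were used, which do not equalise library totals. CDC7 and GMNN, a firing kinase and the licensing inhibitor, were the licensing and activation genes that PMA and FSK left nearest to each other.

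SC79 against control addresses signalling through AKT. Members were lower by small amounts, with POLE2, GINS2, MCM10, CDC6 and ORC1 lowest. Of 47 members, 45 were below control (52.3% of all genes compared), 17 at least 1.2-fold (4.93%) and 0 at least 1.5-fold (0.384%), and the median was -0.21 against -0.01 for 12484 genes. POLE2, the accessory subunit of polymerase epsilon, had 333 scaled counts in control, 285 with FSH, 228 with SC79, 216 with PMA and 96.5 with FSK, at 68.5% of control with SC79 [57.6 to 81.4]. GINS2 had 872, 767, 600.3, 554 and 125, at 68.8% with SC79 [61.9 to 76.5], and MCM10 was at 69.8% [63.6 to 76.6]. CDC6 at 71.2% [65.7 to 77.1] and ORC1 at 71.6% [62.9 to 81.2] were next, so 4 of the 5 lowest belong to licensing and activation. At least 1.2-fold lower were 4 of 6 licensing genes, 4 of 6 activation genes, 3 of 6 ring subunits, 1 of 2 Okazaki enzymes, 1 of 3 single-strand binding proteins, 1 of 3 fork protection genes, 1 of 4 supply enzymes, 1 of 6 clamp and loader genes, 1 of 9 polymerase genes and 0 of 2 chromatin assembly genes. PRIM1 at 103.9% [90.8 to 119.1] and POLD2 at 101.1% [97.4 to 104.9] were the members above control, RFC1 followed at 96.4% [92.9 to 100.1], and all 3 intervals include no difference.

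The comparison of FSH with control concerns the hormone itself. Of 47 members, 46 lay within 1.2-fold of control (93.7% of all genes compared did) and 0 were at least 2-fold lower (0.104%). Below control were 43 of them (53.7% of all genes), with a median of -0.11 against -0.01 for 12473 genes. RFC2 was the member at least 1.2-fold lower (2.73% of all genes), at 83.2% of control [73.4 to 93.9], TYMS was at 83.9% [80.5 to 87.3] and WDHD1, with 1578 in control and 1327 with FSH, at 84.0% [78.2 to 90.3]. WDHD1 had 1328 with SC79, 1192 with PMA and 509 with FSK. CDC45 at 103.3% [91.0 to 117.2], CHAF1A at 100.5% [94.9 to 106.5], RPA2 at 100.3% [94.5 to 106.4] and MCM7 at 100.3% [96.0 to 104.7] were above control by less than counting error. For 24 of the 47 members the counting interval of the FSH ratio included no difference, and for 0 members did it lie above control. The same was not counted over all genes and depends on depth, so these counts only describe the members.

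SC79 was compared with FSH as well, since both lay near control. The control library does not enter this ratio, only the scaling and the minimum mean. Of 47 members, 41 were lower with SC79 than with FSH (49.9% of all genes compared) and 7 at least 1.2-fold (5.04%), with a median of -0.12 against 0.00 for 12507 genes. CDC6 at 74.8% of its FSH level [68.8 to 81.2], MCM10 at 76.5% [69.5 to 84.2] and GINS2 at 78.3% [70.2 to 87.4] were lowest. All genes of the licensing, helicase, helicase activation, single-strand binding and chromatin assembly roles were below their FSH level. In the remaining roles 6 genes (PRIM1, POLD2, RFC2, LIG1, TYMS and WDHD1) were at or above it, PRIM1 highest at 109.7% [95.3 to 126.3]. With DESeq2 size factors TYMS and WDHD1 lay below 0, with library totals RFC1 lay above 0 too, and with the authors' normalized values only PRIM1 did.

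Genes of mitosis, the phase that follows, did not have the same order of treatments as the replication genes. The 25 mitosis genes had a median of -0.30 with FSH, where the replication genes had -0.11, and of -0.18 with SC79, where they had -0.21. Between SC79 and FSH directly, 22 of 25 mitosis genes were higher with SC79 (6267 of 12507 genes compared were) and their median was 0.12. Of the replication genes 41 of 47 were lower (49.9% of all genes compared). Under the authors' normalized values, in which all genes compared had a median of -0.12 between SC79 and FSH, the mitosis median was 0.00 and the replication median -0.24. With PMA the mitosis genes had a median of -1.24 and 22 of 25 were at least 2-fold lower, against -0.43 and 2 of 47 (3.62% of all genes compared). With FSK the 2 lists had medians of -2.41 and -1.55. Between PMA and FSK, where the control does not enter the ratio, the medians were 1.01 and 1.16. These differences between lists have no replicate test.

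Other genes of the pathway covered a wider range. Of 35 further replication factors, 29 were below control with FSK (48.9% of all genes compared) and 15 at least 2-fold (5.43%), with a median of -0.70. UHRF1, which guides maintenance methylation to new DNA, was lowest at -3.19, then ASF1B, a histone chaperone of dividing cells, at -2.92. Its paralogue ASF1A was highest at 0.45, followed by ORC4 at 0.21. With PMA, 29 were below control (50.9% of all genes compared) and 2 at least 2-fold (3.62%). These were TOP2A, which untangles copied DNA, at -1.51 and TICRR, which helps to fire origins, at -1.12. POLD4, the smallest subunit of polymerase delta, was 1.03 higher with PMA, with 1529.9 scaled counts in control and 3121 with PMA, while POLD1, POLD2 and POLD3 were at -0.47, -0.37 and -0.27; ASF1A followed at 0.39. With SC79 HELLS was lowest at -0.49 and UHRF1 next at -0.40, and with FSH TOP2A and DSCC1 were lowest at -0.34 and -0.30. ASF1A at 0.20 was the highest with SC79 and POLD4 at 0.15 with FSH.

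Of 30 further nucleotide supply genes, 26 were below control with FSK (48.9% of all genes compared) and 3 at least 2-fold (5.43%). Among the 3 were MTHFD2, of mitochondrial one-carbon metabolism, at -1.09 and DTYMK, thymidylate kinase, at -1.03. The median of the 30 genes, -0.33, was nearer to 0 than that of the 4 member enzymes, at -2.92. TK2, the mitochondrial thymidine kinase, was 0.54 higher with FSK, opposite in direction to the cytosolic TK1, and SAMHD1, which degrades deoxynucleotides, was at 0.22. With PMA 25 of 30 were below control (50.9% of all genes compared) and 0 at least 2-fold (3.62%). MTHFD2 and IMPDH2, of one-carbon and guanine nucleotide synthesis, were lowest at -0.95 and -0.89, with TK2 highest at 0.31.

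**Figure D4:**
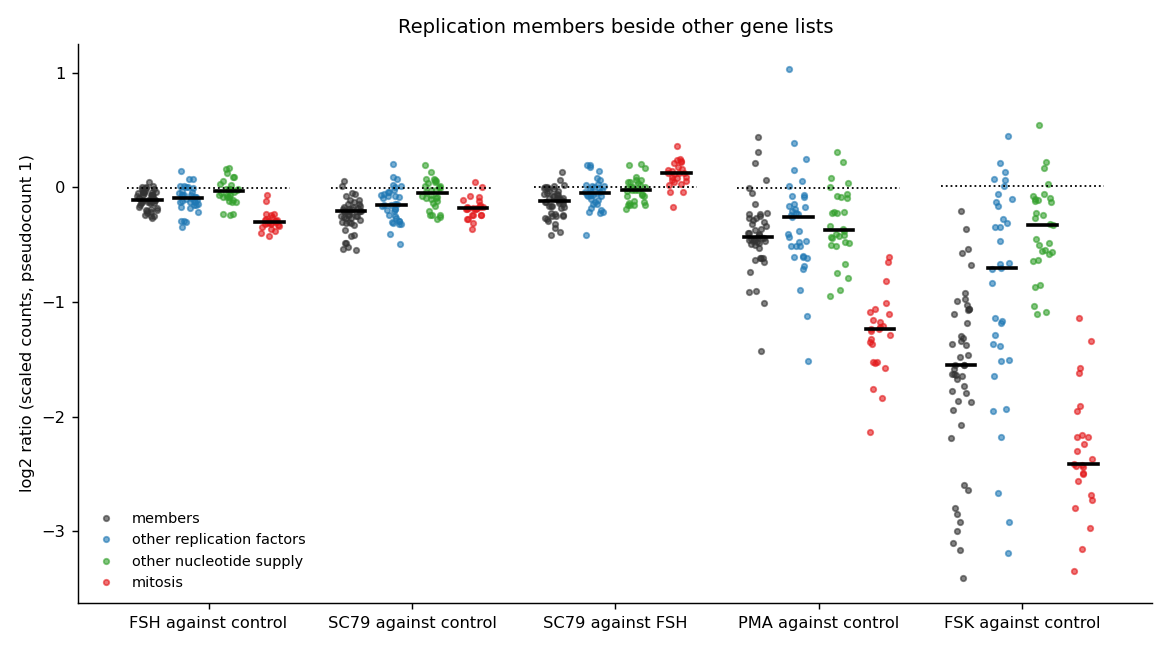
Log2 ratios of the 47 replication members, 35 other replication factors, 30 other nucleotide supply genes and 25 mitosis genes in 5 comparisons; each point is 1 gene, thick lines are medians of the list and dotted lines the median of all genes compared. The mitosis median is below the members' median with FSH, PMA and FSK and above it between SC79 and FSH, and the points of the lists overlap.

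Levels of the 6 ring subunits, which form a complex with 1 copy of each, were compared per kilobase of transcript. In control, scaled counts per kilobase ran from 979.0 for MCM6 to 2291 for MCM4, a 2.34-fold range. The range was 2.64-fold with FSH, 2.86-fold with SC79, 2.83-fold with PMA and 2.83-fold with FSK. MCM4 was highest in all 5 libraries, and MCM6 was lowest in 4 of them, with MCM2 lowest with FSK at 265.6 per kilobase. With PMA MCM5 was at 1463 and MCM7 at 1831 per kilobase, above their control levels of 1185 and 1588. These levels use GENCODE 29 lengths of each transcript, so they move with how reads were split among a gene's transcripts.

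**Figure D5:**
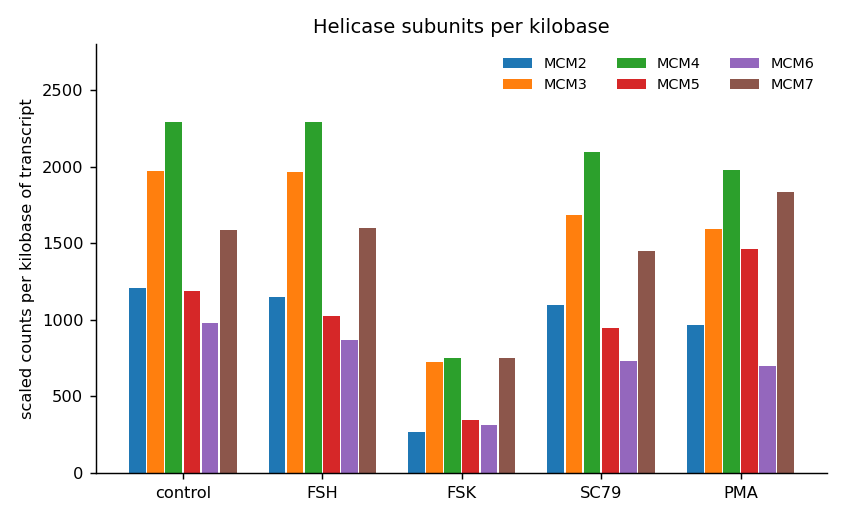
Scaled counts per kilobase of transcript for MCM2 to MCM7 in the 5 libraries; each bar is 1 gene in 1 library, from 0. The FSK bars lie between 265.6 (MCM2) and 752.6 (MCM4), and MCM6 is the lowest bar in the other 4 libraries.

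The authors' deposited table tests single transcripts. For the most abundant transcript of each member, its log2 fold change with FSK was below 0 for 47 of 47 in the authors' deposited table, from -3.52 (CDC45) to -0.23 (RFC1). With FSK, 0 of these 47 transcripts had an adjusted p-value below 0.05 in the authors' deposited table, 12 had an unadjusted p-value below 0.05, and the smallest adjusted p-value was 0.0919, for CDC45. With FSH, SC79 and PMA, 0 of 47 passed in the authors' deposited table with or without adjustment. Across all 402 transcripts of the members, 30 passed with FSK in the authors' deposited table, 25 lower and 5 higher, or 7.46% against 2.20% of all 179973 transcripts. With FSH, 13 passed in the authors' deposited table, 8 lower and 5 higher (3.23% against 1.80% of all), 13 with SC79, 6 lower and 7 higher (3.23% against 1.84%), and 12 with PMA, 6 lower and 6 higher (2.99% against 2.17%). Of those that passed with FSH, SC79 and PMA, 13, 13 and 11 had a mean below 100 scaled counts over the 5 libraries. All 179973 transcripts include those of genes below the minimum mean, so their shares are not a like base. Of the 30 that passed with FSK, 27 had a mean below 100 scaled counts over the 5 libraries. Among the other 3 was a form of MCM3 (ENST00000616552) with 367.2 scaled counts in control, 258.7 with FSH, 142.2 with SC79, 7.13 with PMA and 0.00 with FSK, next to the main form, which held 79.6% of the gene's counts in control and 74.8% with FSK. Another was a form of MCM10 (ENST00000484800), with 327.1 in control and 12.8 with FSK, where the main form's share was 67.2% and 86.5%. The main form of MCM7 in these data is annotated as retaining an intron and held 47.3% of its counts in control, so the MCM7 sum is not all coding RNA. Reads were split among overlapping transcripts by the authors' software, and error in that split is in none of the intervals.

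Sequence shared with other genes limits some members. In GENCODE 29, 40 of 47 members had at least 80% of their 31-base words in no other gene. The 7 others were TYMS at 57.0%, POLA2 at 62.3%, GINS4 at 70.0%, RRM2 at 77.0%, PRIM2 at 77.1%, MCM2 at 79.2% and PRIM1 at 79.5%, and their ratios carry that uncertainty.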

How the data were processed

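Polyadenylated RNA of 5 KGN libraries, 1 per group, was analysed. Trimmomatic, kallisto and edgeR are named without versions in the submitters' processing notes, and the genome build is not given in the sources used here. The authors deposited estimated counts per transcript, per the file headers. The authors also deposited a normalized signal, found here to be those counts times 1 constant per library. Log2 fold changes per transcript were deposited by the authors in a comparison table. The p-values and adjusted p-values in that table are also the authors' and their model is not given in the sources used here. No per-sample column was left unmatched. Counts were summed per gene name; 303 transcripts without a name, with 0.0623% of counts, were left out. TMM factors (edgeR 4.0.16, R 4.3.3) were computed from the rounded sums and applied to the sums as summed.

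Ratios used a pseudocount of 1 scaled count; folds and percentages used none. Genes were compared where the mean was at least 20 and the higher library had at least 100 scaled counts. Intervals are exact (Clopper-Pearson, 95%) from rounded counts and cover counting error only; PCR copies were not told apart, as no molecular identifiers are described. Ratio and interval code was tested on simulated data. Members and lists were chosen with earlier results of these data known. Members named with every library's value were the lowest and highest FSK ratio of each role and the 3 lowest and 3 highest per treatment. Positions and lengths are from GENCODE 29 (89.6% of transcript identifiers matched with version) and promoters from RefSeq. Python 3.11.15, numpy 2.4.6, pandas 2.3.3, scipy 1.17.1 and matplotlib 3.10.9 were used, and DESeq2 1.42.0 for alternative size factors. The value of 1 gene of the other nucleotide supply list is not reported here.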

Additional observations from a re-analysis of the deposited data

Results flagged for a closer look

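The authors' deposited table holds a comparison of LH (luteinising hormone) with control, for which no library was analysed here. Among the most abundant transcripts of the 47 members, that of MCM6 was at a log2 fold change of -1.02 with LH in the authors' deposited table, the only one of the 47 at least 2-fold from control, with an adjusted p-value of 1. The median over the 47 was 0.09 and 16 were below 0.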

How the results depend on the processing

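With 10 alternatives and 12 results, 105 of 114 values stayed within the tolerance set for them. It is the members' typical counting interval to either side for a median and 1.5 times for a count. For FSH this tolerance was 0.104 beside a median of -0.107, and between SC79 and FSH 0.112 beside -0.119. Medians close to 0 would therefore have stayed within it. Between PMA and FSK the count of members at least 2-fold lower was 0 in every setting, as the members were higher with PMA, so it could hardly move. Of the medians 0 changed sign, and counts cannot change sign. The alternatives with no minimum mean and with a minimum mean of 100 kept the same 47 members, so their values could not move. The authors' normalized values, which do not equalise library totals, put the median of all genes compared at -0.16 with FSH, -0.16 with FSK, -0.28 with SC79 and -0.25 with PMA; the members' medians were then -0.26, -1.72, -0.48 and -0.67, and -0.24 between SC79 and FSH, while relative to all genes they were -0.10, -1.56, -0.20 and -0.42 against control. For PMA the count of members at least 2-fold lower was 2, and it was 1 with library totals alone, where TYMS was lost, 4 with the authors' normalized values and 10 with 1.5-fold as the mark. For FSH it was 0, and 1 when the most abundant transcript alone was used, where POLE2 was at -1.19. No paired analysis was possible because each group has 1 library. Depth limits the least abundant members: the FSK interval of CDC45 spans 5.84 to 10.2-fold, that of PCNA 2.0 to 2.18-fold.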
